A study of Mus musculus with 2 samples.

Results

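Cytochrome P450 enzymes are heme proteins of the endoplasmic reticulum and mitochondria that insert oxygen into their substrates. In the liver, families 1 to 3 oxidise drugs and other foreign compounds, family 4 acts on fatty acids and eicosanoids, and smaller subfamilies make or remove steroid hormones, retinoids and vitamin D. Mouse P450 genes lie largely in tandem clusters of recently duplicated paralogs. GATA4 is a zinc finger transcription factor that binds the sequence WGATAR, where W is A or T and R is A or G. GATA4 occupied sites (OS) at P450 genes were described here by subfamily and gene cluster.

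The members were all protein-coding genes of the GENCODE M1 annotation whose symbol starts with Cyp and a digit, other than the sterol and bile acid genes Cyp7a1, Cyp7b1, Cyp8b1, Cyp27a1, Cyp39a1 and Cyp51. There were 92 such genes of 22380 protein-coding genes. Cyp2d37-ps and Cyp2j7-ps carry pseudogene symbols but are annotated as protein-coding there, and were counted. The 92 genes fell into 34 subfamilies on 15 chromosomes, and 73 of them stood in 12 clusters in which neighbours were at most 200 kb apart. A gene was counted as occupied when the midpoint of an OS lay in its body or within 10 kb of it. OS were taken from the list of sites that 2 peak callers, SPP and MACS2, had in common, and 20 of its 4409 OS met the rule.

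GATA4 was immunoprecipitated from whole livers of C57BL/6 x Sv129 mice with the goat polyclonal antibody C-20, and liver DNA that was not immunoprecipitated (input) served as the background. The labels give an age of 2 to 3 months for both samples, while the study's methods give a slightly older range for the ChIP mice. The labels name no genetic change and no treatment. By the study's methods each of 2 biological replicates pooled the livers of 2 mice, and the labels list 1 ChIP sample, so the peak lists cover both replicates together and no spread between replicates could be given. Whole liver holds endothelial, biliary and Kupffer cells beside hepatocytes, and the cells that carried each OS cannot be told apart. The files hold peak positions only, without read numbers, so the depth behind a single OS is unknown, and RNA levels were not analysed here. All peaks carry the same score, so the number of an OS in its list, counted from the head, was given instead. The files do not state what this order follows. Coordinates refer to mm9 (NCBI Build 37) and count from 1.

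At least 1 common OS was found at 20 of the 92 P450 genes, or 21.7% (Wilson 95% interval 14.5 to 31.2). Of all protein-coding genes, 13.7% were occupied by the same rule. The median P450 gene was longer than the median protein-coding gene, at 21.5 kb against 15.4 kb. Merged where they overlapped, the windows spanned 3.96 Mb for the 92 P450 genes and 1255 Mb for all 22380 protein-coding genes. The part of gene length in these shares was not tested. Counted per length of merged windows, P450 genes held 5.05 OS per Mb and all protein-coding genes 2.54 OS per Mb. Gene bodies and 10 kb flanks can make up different parts of both window sets, so this is not a like comparison. With gene bodies alone, only 5 P450 genes (5.43%) held an OS against 7.67% of all genes, so the order of both shares turned around when the flanks were left out. Intervals here cover counting error only, and neighbouring genes can share an OS, so the genes are not independent units.

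Sites near transcription start sites (TSS) made up part of the set. An OS midpoint lay within 1 kb of a TSS at 7 P450 genes (7.61%), while 3.11% of all protein-coding genes had one there. Of the 20 P450 OS, 13 were upstream of the P450 gene with the nearest TSS, 3 were in introns and 4 were downstream of the gene. Counted from the nearest TSS of any protein-coding gene, 7 P450 OS (35%) lay within 1 kb, against 14.8% of all common OS. The median distance was 2006 bp for P450 OS and 17456 bp for all OS. The rule itself kept the P450 OS in or within 10 kb of a gene. Of the 4409 common OS, 3182 lay in or within 10 kb of a protein-coding gene. Neither the share of OS within 1 kb nor the median distance is therefore a like comparison.

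**Figure D1:**
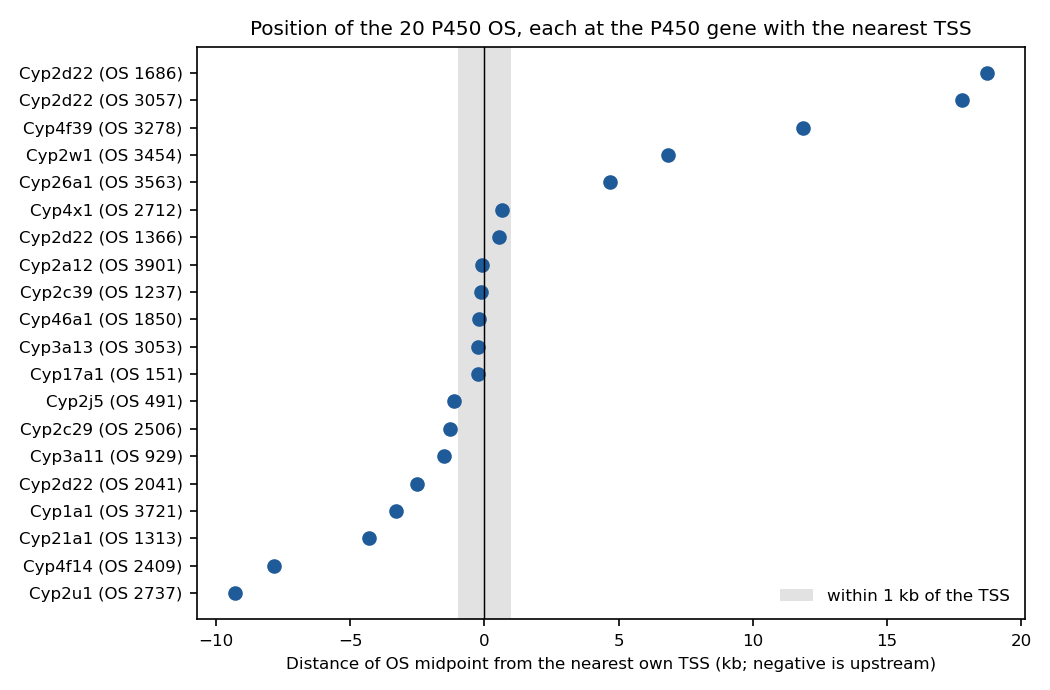
Distance in kb of the midpoint of each of the 20 P450 OS from the nearest TSS of the P450 gene named on the vertical axis, with negative values upstream; the grey band marks 1 kb to either side. The 7 points in the band are 5 sites upstream and 2 in first introns, and the points span 9.29 kb upstream to 18.7 kb downstream.

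An OS was present in 15 of the 34 subfamilies, at 1 or a few genes in each. A single gene makes up 24 of the 34 subfamilies, so no more than 1 could be occupied there. Of the drug-metabolising genes of families 1 to 3, 9 of 52 (17.3%, interval 9.38 to 29.7) were occupied, near the 13.7% of all genes. In the fatty acid and eicosanoid group (Cyp2j, Cyp2u and family 4) 6 of 26 genes (23.1%, 11 to 42.1) had an OS. The steroid hormone group had 2 of 6, Cyp17a1 and Cyp21a1, and the vitamin A and D group also had 2 of 6, Cyp26a1 and Cyp26c1, which shared 1 site. Genes in clusters were occupied in 14 of 73 cases (19.2%, 11.8 to 29.7) and single genes in 6 of 19 (31.6%, 15.4 to 54), with overlapping intervals.

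**Figure D2:**
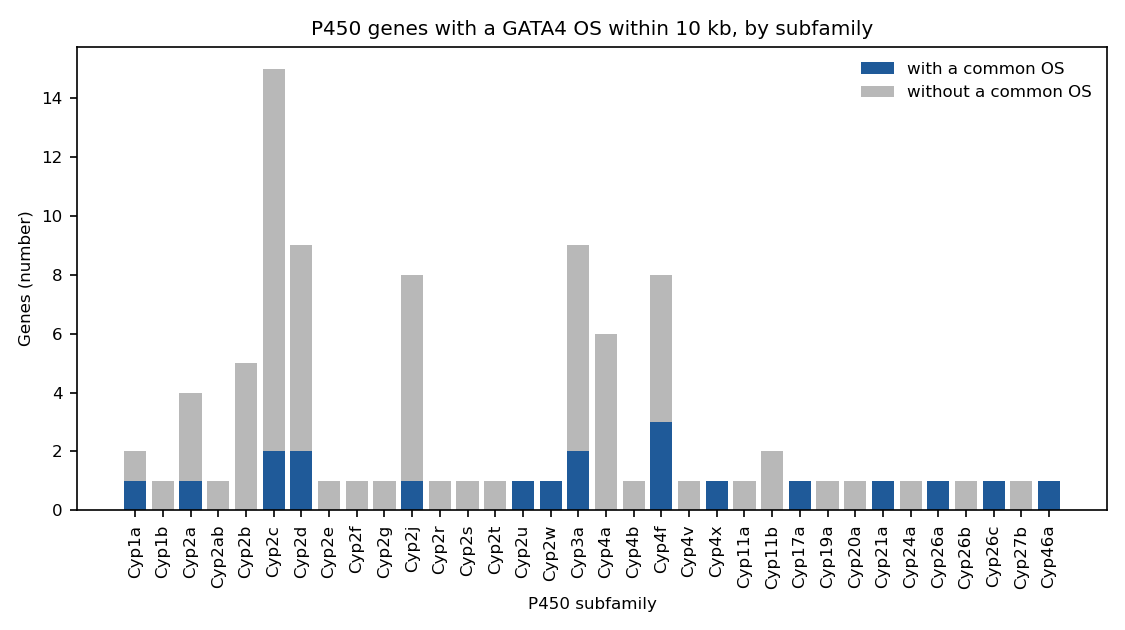
Number of P450 genes in each subfamily, with those that had a common OS within 10 kb in blue and the others in grey. Blue segments reach at most 3 genes (Cyp4f), Cyp2c has 2 of 15, and Cyp2b and Cyp4a have none of 5 and 6.

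The steroidogenic gene Cyp17a1, whose enzyme is the 17-alpha-hydroxylase and lyase of androgen synthesis, had the P450 OS nearest the head of both lists. It was number 151 of 4409 in the common list and 173 of 5867 in the MACS2 list. The site, chr19:46747543-46747864, was 322 bp wide and centred 239 bp upstream of the TSS. It held 4 WGATAR matches, and matches 2 and 3 overlapped on opposite strands. The surroundings of each match are given on the strand of the motif, with that match in capitals.
Cyp17a1 match 1: ttgatcttaatcTGATAGcatttgcctctg
Cyp17a1 match 2: tcctcaactatcAGATAAtaagactgaagt
Cyp17a1 match 3: agtcttattatcTGATAGttgaggagagag
Cyp17a1 match 4: acaaggcagtgaTGATAAgaatccagaagt
A further MACS2 peak in intron 6 of Cyp17a1, number 4017, was not called by SPP. The other occupied steroid gene was Cyp21a1, the steroid 21-hydroxylase, with OS number 1313 at chr17:34945719-34945876, 4291 bp upstream of the TSS, and 1 WGATAR match. Cyp11a1, Cyp19a1, Cyp11b1 and Cyp11b2 had no common OS within 10 kb, and the nearest OS to the bodies of both Cyp11b genes were 20263 bp (Cyp11b2) and 34938 bp (Cyp11b1) away.

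In the Cyp3a subfamily, whose members oxidise many drugs and steroids, 2 of 9 genes were occupied. Cyp3a13 lies apart from the cluster of the other Cyp3a genes. Its OS, number 3053 at chr5:138362927-138363246, was centred 239 bp upstream of the TSS and held 3 WGATAR matches, of which matches 1 and 2 stood side by side. Matches 1 and 3 are shown in capitals, on the motif strand.
Cyp3a13 match 1: actcagtgataaTGATAAcactggcctcag
Cyp3a13 match 3: cacctgagtttcTGATAAgaagcaataacc
Within the cluster of 8 genes only Cyp3a11, a major pregnane X receptor target of mouse liver, had a common OS. That site was number 929, at chr5:146692972-146693130 and 1511 bp upstream of the TSS.

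Stretches aligned with each OS over at least 50% of its length were sought in the windows of all P450 genes, and 13 of the 20 OS had none. Upstream of 4 other Cyp3a genes of the cluster lay stretches that aligned over 95.6% of the Cyp3a11 OS with 81.6 to 83.6% identity. All 4 stretches, 1620 to 1795 bp upstream of their TSS, kept the WGATAR of the Cyp3a11 site at the aligned place. None of them overlapped a peak of the common, SPP or MACS2 list. They are shown because the motif was kept and no peak was called, with WGATAR in capitals, on the plus strand of chr5:146692972-146693130, chr5:146618998-146619147, chr5:146533258-146533407, chr5:146347146-146347295 and chr5:146232313-146232462, in that order.
Cyp3a11 OS: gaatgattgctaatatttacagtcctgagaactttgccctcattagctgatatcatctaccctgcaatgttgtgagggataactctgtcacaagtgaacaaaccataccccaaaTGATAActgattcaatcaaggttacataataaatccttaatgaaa
Cyp3a44 stretch: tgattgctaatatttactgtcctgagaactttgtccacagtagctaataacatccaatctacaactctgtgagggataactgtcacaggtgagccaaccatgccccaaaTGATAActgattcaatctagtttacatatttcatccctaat
Cyp3a41a stretch: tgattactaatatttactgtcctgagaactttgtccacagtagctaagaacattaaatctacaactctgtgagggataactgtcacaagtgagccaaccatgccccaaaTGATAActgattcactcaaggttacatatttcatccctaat
Cyp3a41b stretch: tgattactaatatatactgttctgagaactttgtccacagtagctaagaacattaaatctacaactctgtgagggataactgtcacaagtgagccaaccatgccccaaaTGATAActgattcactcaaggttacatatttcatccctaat
Cyp3a16 stretch: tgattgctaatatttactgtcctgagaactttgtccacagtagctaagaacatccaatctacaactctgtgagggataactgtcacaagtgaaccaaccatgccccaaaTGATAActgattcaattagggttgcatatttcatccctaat
The authors kept uniquely placed reads only, so a stretch that repeats elsewhere can collect few reads. Of the 48-base words overlapping the stretches, as long as a read, 84.1% occurred once in the genome at Cyp3a44, 37.7% at Cyp3a16 and 29.8% at both Cyp3a41a and Cyp3a41b. Without read numbers, a stretch without a peak cannot be said to lack GATA4. An SPP peak downstream of Cyp3a16, number 2492 of 4811, was not called by MACS2.

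The Cyp2c cluster, which encodes drug and arachidonic acid oxidases, held OS at 2 of its 14 genes, Cyp2c29 and Cyp2c39, and none at the remaining Cyp2c gene outside it. The Cyp2c39 OS was number 1237, at chr19:39585155-39585313, centred 118 bp upstream of the TSS with 3 WGATAR matches. Stretches in the promoters of Cyp2c29 (chr19:39361395-39361560) and Cyp2c38 (chr19:39537592-39537735) aligned over its whole length with 79.5% and 81.2% identity. Cyp2c29 kept 2 of the 3 matches at the aligned places and Cyp2c38 kept 1. No peak of any list overlapped these stretches, and all of their 48-base words occurred once as exact copies. Near copies with a differing base were not counted, so these stretches cannot be said to lack GATA4 either. WGATAR is in capitals, and the Cyp2c38 stretch is given on its minus strand.
Cyp2c39 OS: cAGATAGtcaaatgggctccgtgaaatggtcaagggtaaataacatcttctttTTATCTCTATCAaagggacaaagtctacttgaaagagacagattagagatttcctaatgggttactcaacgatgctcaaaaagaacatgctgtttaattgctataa
Cyp2c29 promoter stretch: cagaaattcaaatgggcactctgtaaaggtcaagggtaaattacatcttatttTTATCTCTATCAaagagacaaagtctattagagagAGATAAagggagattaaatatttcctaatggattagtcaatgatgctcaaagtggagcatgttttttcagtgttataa
Cyp2c38 promoter stretch: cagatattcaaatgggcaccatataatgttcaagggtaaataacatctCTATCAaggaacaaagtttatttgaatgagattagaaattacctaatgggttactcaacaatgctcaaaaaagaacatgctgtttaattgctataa
In the Cyp2c39 OS itself 66.7% of the words were unique, the lowest share among the P450 OS.

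At Cyp2c29 the OS lay further upstream, 1277 bp from the nearest TSS, at chr19:39360279-39360369. It was number 2506 in the common list, 91 bp wide, and had a GC content of 28.6%, the lowest among the P450 OS. A longer annotated Cyp2c29 transcript starts upstream of it, so the site also lies in the body of the gene. The aligned stretches near Cyp2c38 and Cyp2c39 covered 64.8% of the site with 86.4% identity each. Neither kept the aligned WGATAR, and neither overlapped a peak.
Cyp2c29 OS: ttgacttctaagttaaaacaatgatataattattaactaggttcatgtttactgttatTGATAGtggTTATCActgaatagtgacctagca
Cyp2c38 stretch: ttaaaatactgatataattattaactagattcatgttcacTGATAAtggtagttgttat
Cyp2c39 stretch: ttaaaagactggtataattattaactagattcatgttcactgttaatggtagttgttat
The Cyp2c38 stretch, at chr19:39538621-39538679 and given on the minus strand, held a WGATAR in its later part, and the Cyp2c39 stretch, at chr19:39584229-39584287, held none. At the end of the cluster, Cyp2c70 had a MACS2 peak, number 3250, centred 39 bp upstream of its TSS with 1 WGATAR, which SPP did not call.

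Cyp2d22 was the P450 gene with the most sites. Within 10 kb of it lay 4 of the 20 P450 OS, and 2 of these were also within 10 kb of its neighbour Cyp2d11, the only P450 genes with 2 or more OS. Cyp2d genes encode drug oxidases related to human CYP2D6, and the other 7 genes of the cluster, Cyp2d37-ps among them, had no common OS. Number 1366 lay in intron 1 of Cyp2d22, 562 bp past the TSS, at chr15:82210032-82210225, touched no exon and was number 984 in the MACS2 list. Its sequence held 1 WGATAR, in capitals.
Cyp2d22 intron OS: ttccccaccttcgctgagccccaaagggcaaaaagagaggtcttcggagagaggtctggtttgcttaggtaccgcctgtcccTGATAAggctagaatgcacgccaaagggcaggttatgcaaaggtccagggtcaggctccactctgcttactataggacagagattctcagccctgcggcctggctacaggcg
Number 2041 was 2500 bp upstream of the Cyp2d22 TSS with 2 matches. The other 2 sites, numbers 1686 and 3057, lay downstream of the gene, 18722 and 17792 bp past its TSS. Their nearest TSS was that of Ndufa6, a subunit of respiratory complex I, and they were the only P450 OS with a gene of another kind nearest. Number 3057 held 2 WGATAR matches and number 1686 none. At the far end of the cluster, Cyp2d26 had 2 MACS2 peaks that SPP did not call, centred 227 and 1838 bp upstream of its TSS, with 3 and 2 WGATAR matches.

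**Figure D3:**
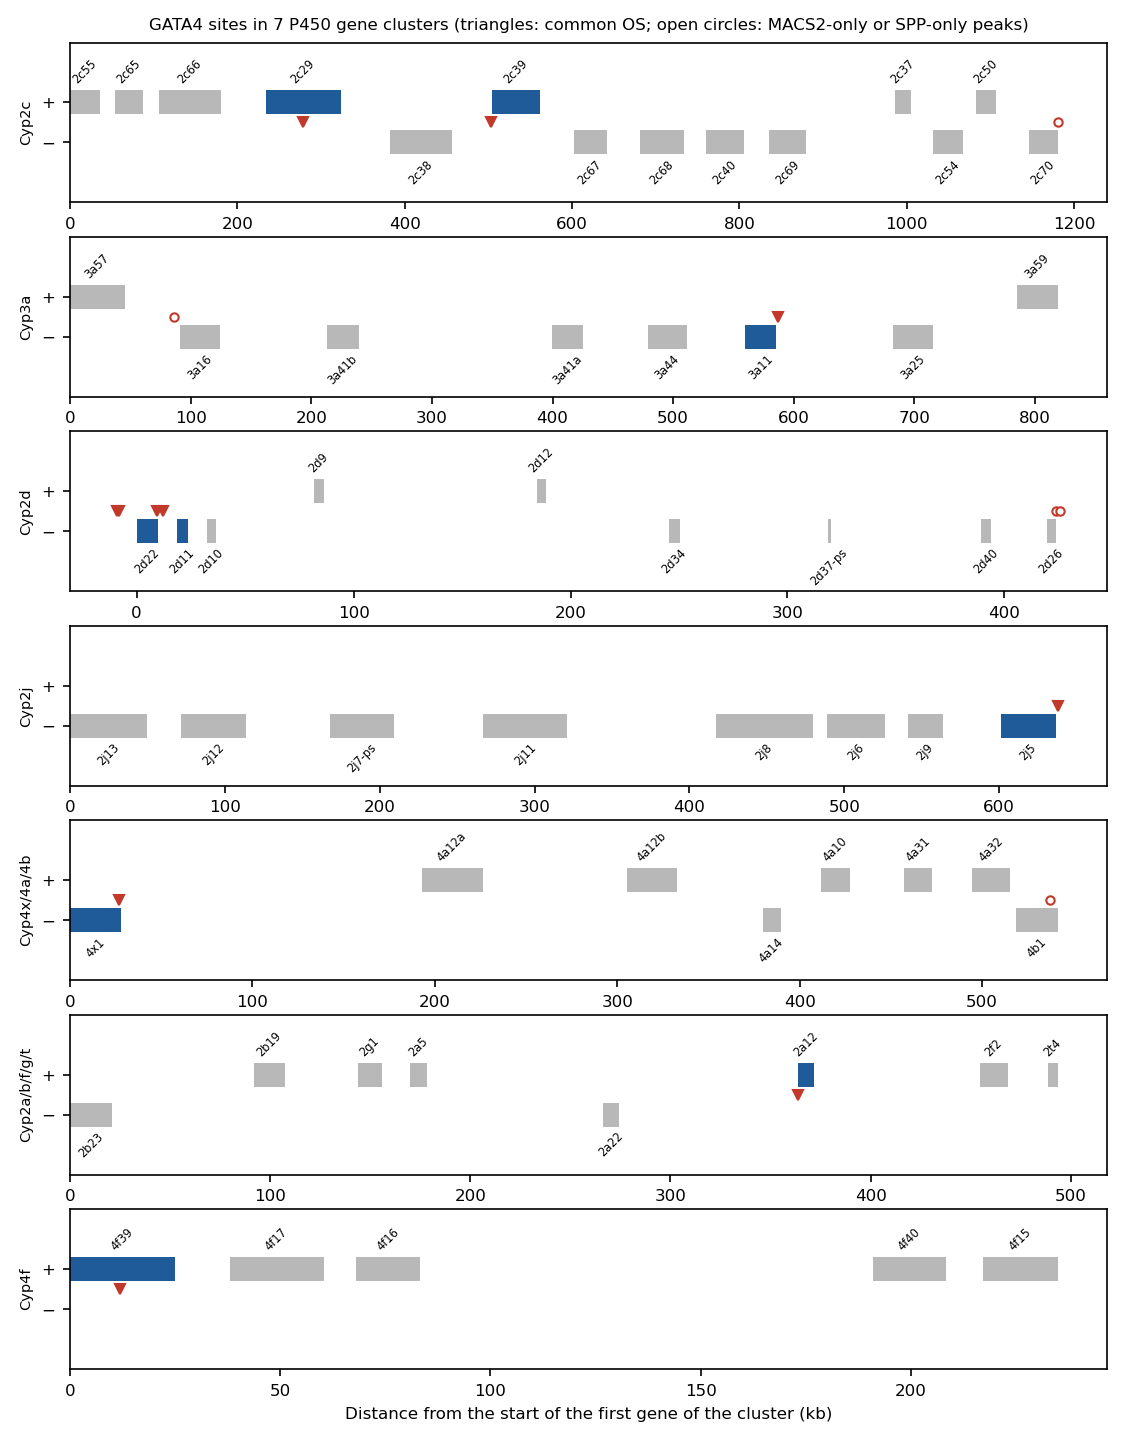
Genes of 7 P450 clusters by strand (rows + and −) along the distance in kb from the start of the first gene of each cluster, blue with a common OS and grey without. Red triangles are common OS and open circles are peaks of 1 caller, and OS stand at 1 or 2 genes of each cluster, such as Cyp2c29 and Cyp2c39 of the Cyp2c genes.

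In the Cyp2a, Cyp2b, Cyp2f, Cyp2g and Cyp2t cluster of 8 genes, Cyp2a12 alone was occupied. Cyp2a enzymes hydroxylate steroids and coumarin. The Cyp2a12 OS, number 3901 at chr7:27813848-27814167, was centred 102 bp upstream of the TSS. A stretch with 93.1% identity over 90.3% of it lay at the promoter of Cyp2a22, at chr7:27724336-27724624, centred 75 bp upstream of that TSS. Both WGATAR matches of the Cyp2a12 site were kept there. No peak overlapped the Cyp2a22 stretch in any list, and 99% of its words were unique as exact copies. Near copies were not counted here either, so absence of a peak is not absence of GATA4. The matches at both genes are shown on the strand of the motif, with WGATAR in capitals.
Cyp2a12 match 1: gtccatgttaggAGATAGgattggaatcta
Cyp2a22 match 1: gtccatgtaaggAGATAGaattgcaatcca
Cyp2a12 match 2: ggattgacagacTGATAGccaaggctgaga
Cyp2a22 match 2: ggactgacaggcTGATAGccaaggctgaga
The nearest common OS to the body of Cyp2a22 was 14296 bp away. The Cyp2b subfamily, the classic phenobarbital-inducible P450 genes, had no common OS at any of 5 genes, and Cyp2e1, which oxidises ethanol, had its nearest OS 46392 bp away.

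Cyp1a1 and Cyp1a2, the dioxin-inducible targets of the aryl hydrocarbon receptor, lie head to head. The OS between them, number 3721 at chr9:57542089-57542185, was 3283 bp upstream of the Cyp1a1 TSS and counted for Cyp1a1 alone, since it was 10675 bp from Cyp1a2. Only Cyp2s1, at 10513 bp, lay closer to the 10 kb limit from outside, while Cyp2u1, at 9290 bp, and Cyp26c1, at 9102 bp, were the last genes inside it. The Cyp1a1 site carried 1 WGATAR near its centre.
Cyp1a1 OS: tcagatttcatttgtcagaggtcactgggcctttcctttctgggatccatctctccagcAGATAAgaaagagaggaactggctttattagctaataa

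Among the fatty acid and eicosanoid genes, Cyp2j5 had the OS nearest the head of the list. Cyp2j5 is an arachidonic acid epoxygenase, and its site, number 491 at chr4:96331883-96332074, lay 1133 bp upstream of the TSS. It stood at 2857 in the MACS2 list, so both lists placed it differently. The other 7 Cyp2j genes of the cluster, Cyp2j7-ps among them, had no OS.
Cyp2j5 match: aggagatgaactTGATAGcattggctcaca
Cyp2u1, a fatty acid hydroxylase gene outside the clusters, had an OS 9290 bp upstream of its TSS, number 2737 at chr3:131015375-131015495. It held 2 WGATAR matches on the minus strand, with a match to the forkhead (FOXA) motif TGTTTAC between them on the same strand.
Cyp2u1 OS: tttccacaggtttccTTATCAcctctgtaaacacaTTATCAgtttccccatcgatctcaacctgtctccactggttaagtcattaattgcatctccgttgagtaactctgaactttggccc

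Cyp4f genes, whose products hydroxylate leukotrienes and vitamins E and K, were occupied at 3 of 8. Cyp4f13 and Cyp4f14 shared OS number 2409, at chr17:33061717-33062036, which overlapped exon 13 of Cyp4f13 and lay 7853 bp upstream of the Cyp4f14 TSS. In the windows of Cyp4f genes 5 other stretches aligned with it at 78.9 to 90.6% identity, and none of them held a WGATAR or overlapped a peak. The site itself held 1.
Cyp4f14 and Cyp4f13 match: tcgccatgagcgAGATAAaggtagcgctgg
Cyp4f39, a hydroxylase of very long fatty acids of skin ceramides, had an OS in intron 2, number 3278 at chr17:32617220-32617327. Its 4 WGATAR matches overlapped one another at the edge of the site in a run of a 4-base repeat.
Cyp4f39 run: aaacacaaacatAGATAGatagatagatag
Cyp4x1 had OS number 2712 at chr4:114805885-114805970, in intron 1 and 655 bp past the nearest TSS. It is the first gene of a cluster whose 6 Cyp4a genes, targets of the fatty acid receptor PPARA, had no common OS. The nearest Cyp4a gene was Cyp4a10, with an OS 12712 bp from its body. Cyp4b1, at the other end, had an SPP peak in intron 1, number 4742, that MACS2 did not call.
Cyp4x1 match: tgatatggcaagTGATAGggcaatcagtat

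The retinoic acid hydroxylase genes Cyp26a1 and Cyp26c1 are neighbours and shared 1 OS. It lay downstream of both genes, 972 bp from the body of Cyp26a1 and 9102 bp from that of Cyp26c1, at chr19:37776831-37777150. With 5 WGATAR matches it held more than any other P450 OS, though it was number 3563 of 4409. Matches 2 to 4 stood close together, and 3 of the matches are shown, each in capitals.
Cyp26a1 and Cyp26c1 match 1: aaaggctggtttAGATAAgcagagcccagg
Cyp26a1 and Cyp26c1 match 2: tagcgggctgacAGATAAagtttttatcta
Cyp26a1 and Cyp26c1 match 5: gtctgacatgacTGATAAaatggcccagtc
Cyp26b1, on another chromosome, and the vitamin D genes Cyp24a1, Cyp27b1 and Cyp2r1 had no OS within 10 kb.

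Cyp46a1, the cholesterol 24-hydroxylase of neurons, had a promoter OS, number 1850 at chr12:109572315-109572479, centred 190 bp upstream of the TSS. It is shown because it held no WGATAR, one of 2 such P450 OS, and its GC content was 64.2%. The Cyp46a1 site did hold 1 match to the shorter forms WGATA or GATAR, while number 1686 at Cyp2d22 held none.
Cyp46a1 OS: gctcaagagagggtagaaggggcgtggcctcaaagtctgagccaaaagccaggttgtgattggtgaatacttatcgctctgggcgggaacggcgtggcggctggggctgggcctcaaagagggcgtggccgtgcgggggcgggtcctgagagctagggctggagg
The remaining site was number 3454 at chr5:139835385-139835468, downstream of Cyp2w1, a P450 known from colon and tumours, and 6855 bp past its TSS.
Cyp2w1 match: gtgacctgagacTGATAAcatctggccaag

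WGATAR was present in 18 of the 20 P450 OS, or 90% (Wilson interval 69.9 to 97.2), and in 82.9% of all common OS. The sites held 37 matches in all. There were 8 sites with 1 match, 5 with 2 and 5 with 3 or more. The median match was 34 bp from the midpoint of its OS, and 29 of 37 were within 50 bp. Of motifs for other liver factors, searched on both strands, the nuclear receptor motif AGGTCA was in 8 P450 OS (40%) against 24.3% of all OS, and the CEBP motif TTGCNNAA in 4 (20%) against 12.7%. The HNF1 motif GTTAATNAT was in the Cyp17a1 and Cyp2c29 sites (10%) against 1.07% of all OS. The FOXA motif TGTTTAC was in 2 sites (10%, against 6.26%), and the HNF4A motif CAAAGTCCA was in none, against 1.16%. TGANTCA, a loose form of the AP-1 motif with any base in the middle, was in the 2 Cyp3a sites (10%, against 7.55%). It read TGAGTCA at Cyp3a13 and TGATTCA at Cyp3a11, so the sites did not share the same sequence. With 20 sites, each of these intervals spans at least 16.1 percentage points, and the matches say nothing of which factors were bound.

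Promoters of P450 genes were searched for WGATAR and for OS midpoints. From 500 bp upstream to 100 bp downstream of the start of the longest protein-coding transcript, 62 of 92 P450 genes (67.4%) held a WGATAR, against 50.1% of all protein-coding genes. An OS midpoint lay in 4 of these 62 promoters (6.45%), those of Cyp17a1, Cyp2a12, Cyp2c39 and Cyp3a13. Of the 30 promoters without the motif, 1 (3.33%), that of Cyp46a1, held an OS midpoint. With the peaks of either single caller counted as well, 7 promoters held a midpoint, with Cyp2c70 and Cyp2d26 as the additions. OS in promoters with and without WGATAR were not counted over all protein-coding genes. Whatever their motifs, 3.11% of all protein-coding genes had an OS midpoint within 1 kb of a TSS, so low shares are common. Whether these shares are particular to P450 genes was therefore not tested.

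P450 OS stood in the middle of the lists. Their median number in the common list was 2458, against 2205 for all OS, and they ranged from 151 to 3901. List numbers 1 to 1102 held 3 of them, those up to 2204 a further 6, those up to 3306 a further 7 and the rest 4. In the MACS2 list their median number was 2919 of 5867, against 2195 for all common OS. Widths of P450 OS ranged from 84 to 322 bp (median 158.5 bp, against 190 bp for all OS), and their median GC content was 45.9% against 49.4%.

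**Figure D4:**
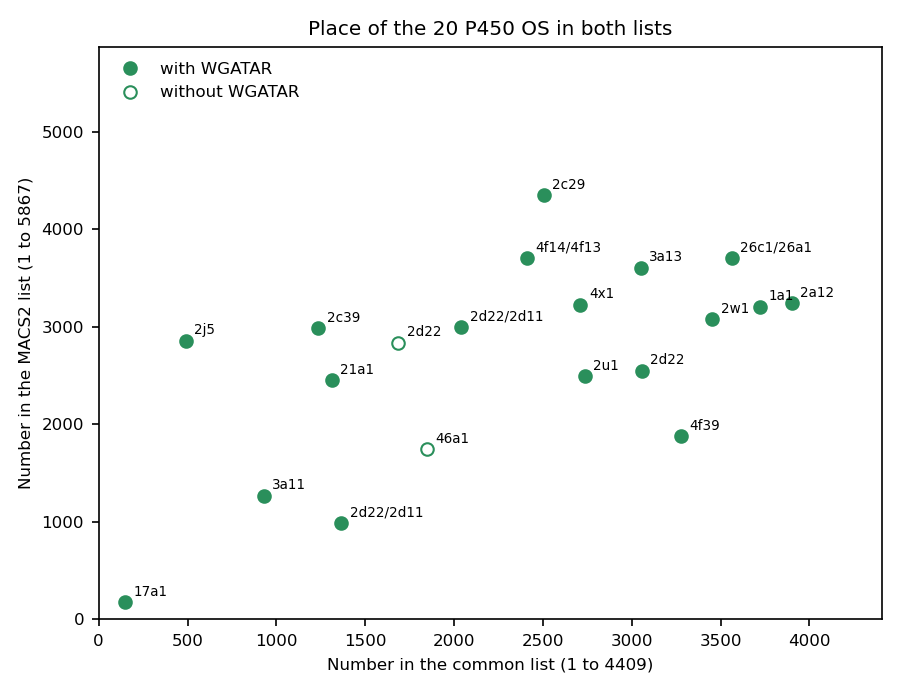
Number of each of the 20 P450 OS in the common list (horizontal, 1 to 4409) against the number of its peak in the MACS2 list (vertical, 1 to 5867), with low numbers at the head; filled points held a WGATAR and the 2 open points did not. Cyp17a1 stands alone near the head of both lists, and Cyp2j5 is near the head of the common list only.

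Since only uniquely placed reads were kept, the share of unique sequence was measured at every P450 gene. In the windows of the P450 genes, 80.6% of 48-base words occurred once in the genome, against 91.4% in the windows of all protein-coding genes. Occupied P450 genes had 87.3% unique words and the others 78.9%. The share was lowest in Cyp2a (59.7%), Cyp4a (68.5%), Cyp2c (70.2%), Cyp21a (70.7%) and Cyp3a (71.3%), of which Cyp21a has a single gene that was occupied. It was 93% in Cyp4f and 97.1% in Cyp1a. Cyp3a41a and Cyp3a41b had only 29% and 30.4% unique words, and in their promoters 12.3% and 15.7%. Promoters of Cyp2b13 and Cyp2b9 had 21.3% and 23.3%. An OS in such a stretch could have been missed, so absence of a call there is not absence of occupancy. Common OS themselves were 99.7% unique, and P450 OS 97.5%. The part of repeated sequence in the difference between occupied and other P450 genes was not tested.

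**Figure D5:**
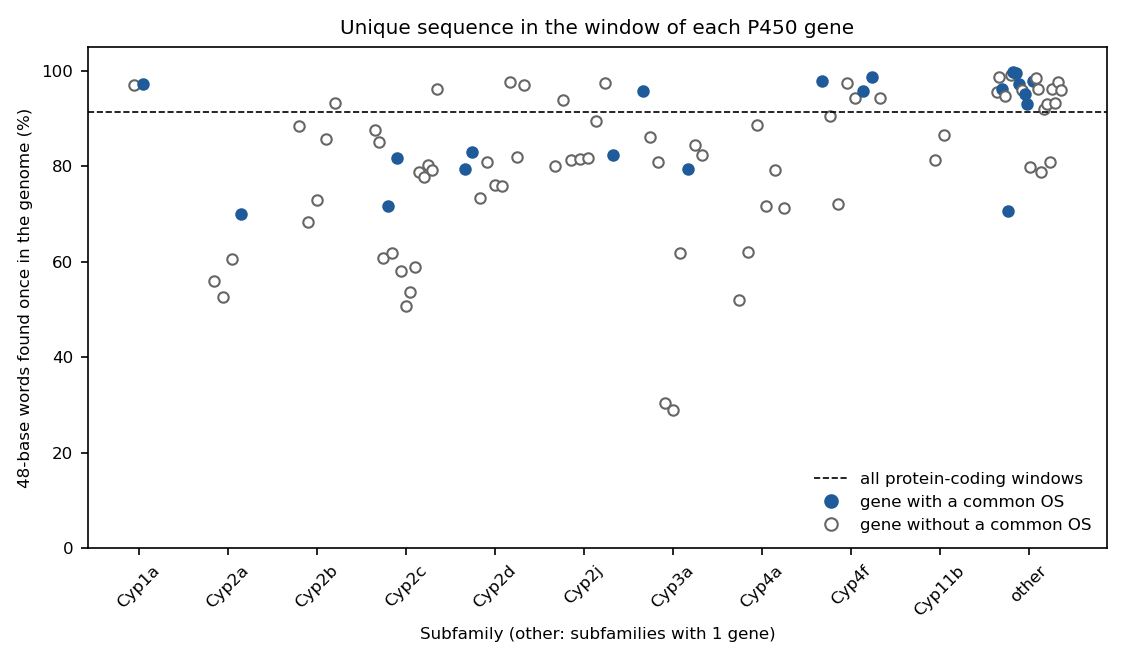
Share in percent of 48-base words found once in the genome, for the body and 10 kb flanks of each P450 gene, by subfamily, with filled points for genes with a common OS. The dashed line is the 91.4% of all protein-coding windows, and the lowest points are Cyp3a41a and Cyp3a41b at 29% and 30.4%.

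Calls by 1 program added few genes. With the MACS2 list 22 P450 genes (23.9%) had a peak within 10 kb, against 17.3% of all protein-coding genes, and Cyp2d26 and Cyp2c70 were the additions. The SPP list gave 22 genes (23.9%) by adding Cyp4b1 and Cyp3a16, against 14.5% of all protein-coding genes. A peak of any list was lacking at 68 P450 genes. That count was not made over all protein-coding genes, so whether it is particular to P450 genes was not tested. A further 6 genes had their nearest common OS 10 to 20 kb from the body and 8 had it at 20 to 50 kb. With a 50 kb window, 37% of P450 genes and 27.7% of all protein-coding genes had a common OS.

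Genes that work with P450 enzymes were counted by the same rule, beside the 13.7% of all protein-coding genes. Of 6 electron partners, 2 were occupied (33.3%, interval 9.68 to 70). Cyb5a was also sought, but its symbol was not found in the annotation, so it was not counted. Por, the reductase that feeds microsomal P450 enzymes, had 1 OS, number 204, and Cyb5b, a cytochrome b5, had 2. Of 16 regulators of P450 genes, 8 were occupied (50%, 28 to 72). These were the xenobiotic receptors Nr1i2 (PXR, number 537) and Nr1i3 (CAR, number 441), the fatty acid receptor Ppara (number 42), Rxra with 3 OS, Hnf4a, Cebpa, Hlf and Tef. Ahr and Arnt, which control Cyp1a genes, had none. Among the conjugating enzymes, which act on P450 products, 4 of 58 genes (6.9%, 2.71 to 16.4) had a common OS, and they were Gstm2, Gstm3, Gstz1 and Ugt2b36. None of 17 Sult genes had one, with an interval of 0 to 18.4%.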

How the data were processed

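GATA4 ChIP-seq peaks from whole mouse liver were analysed. The authors aligned reads to mm9 with Bowtie 0.12.7, discarded reads with several placements, ran MACS2 2.0.10 and a modified SPP against input, set thresholds by reproducibility of ranks between replicates, and intersected the lists with bedtools 2.16.1, keeping SPP coordinates. The deposited score was 1000 in every line and was replaced by the number in the peak name. Input entered only through the peak calls.

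Genes and TSS came from protein-coding transcripts of GENCODE M1 on NCBI Build 37, the same build. Motifs were matched exactly on both strands. Intervals are Wilson intervals at 95%. Words of 48 bases were counted over both strands of the genome, every 10 bases at P450 genes and every 2000 bases in windows of all genes. Only exact copies counted, so a word called unique can have near copies elsewhere. Stretches were aligned with blastn 2.17.0, kept at 50% cover. No test was run, since no replicate values were given. Python 3.11.15, pysam 0.24.0 and numpy 2.4.6 were used, and scripts were tested on simulated data.

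The members and lists were chosen with earlier results of these data known. Genes named were all members with a common OS or a peak of 1 caller, and counts for the larger subfamilies. Genes named outside it, such as unoccupied genes, were chosen after their values were seen. Alternatives were the window, list, gene model and motif stretch. The common list, of SPP coordinates, can miss OS in repeated sequence.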

Additional observations from a re-analysis of the deposited data

How the results depend on the processing

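Of 26 alternatives, 19 left the count or share near the value reported. The occupied P450 genes and their OS were 20 each in the main count. They were 16 to 22 genes and 17 to 24 OS under several other choices. These choices were a 5 kb window, peak overlap of at least 1 bp, the longest transcript, the nearest TSS or either single list. With gene bodies alone both counts were 5, and with a 50 kb window they were 34 genes and 41 OS, against 27.7% of all protein-coding genes (37% of P450 genes). List numbers up to 2204 left 8 genes and 9 OS, or 8.7% of P450 genes against 7.22% of all genes. WGATAR was in 100% of P450 sites of the MACS2 list, a rise whose cause was not tested, and in 85 to 95% under the other choices. The median position was 49.8 to 55.7% of the list. Counting the starts of all transcripts, chosen after seeing the data, gave 8 genes with an OS within 1 kb in place of 7.

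Depth per site is unknown, replicates cannot be separated, and leaving out a replicate was not possible. No paired analysis was possible because the lists cover both replicates together.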
